A study of Homo sapiens with 6 samples.

Results

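PODXL encodes podocalyxin, a sialomucin of the cell surface, and it was examined here together with its relatives PODXL2 and CD34, with the linker genes EZR, RDX and MSN (ezrin, radixin and moesin) and with NF2 (merlin), which makes 7 of the 60612 genes in the table. PODXL was chosen from the readout, as the rising gene with the smallest p in PRMT6-knockdown U87 cells, and the other 6 were chosen by protein family. Its own difference between the groups is therefore a description and carries no test. The cells were U87, a glioblastoma line long kept in culture, and RNA was sequenced from 3 libraries of cells that received lentivirus with a Scramble shRNA (NC) and 3 libraries of cells that received lentivirus with an shRNA against PRMT6 (shPRMT6). Both groups were cultured in DMEM with fetal bovine serum, received the lentivirus with polybrene and carried an shRNA construct. The methods describe stable cells selected with puromycin, call the replicates independent and do not say which PRMT6 shRNA was sequenced. The p-values below set the difference between the groups against the spread between these libraries. Whether that spread includes variation between infections or between shRNAs is not stated.

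Podocalyxin carries a long extracellular part covered with O-linked glycans and sialic acid, whose negative charge keeps neighbouring membranes apart, as between the foot processes of kidney podocytes. Its short cytoplasmic tail ends in a PDZ-binding motif that is bound by the NHERF scaffold proteins, and these bind the FERM domain of ezrin, radixin and moesin. The C-terminus of the ERM proteins binds actin filaments once a conserved threonine is phosphorylated, while merlin shares the FERM domain, lacks that actin-binding end and acts as a growth suppressor upstream of the Hippo pathway.

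The ends of the 3 sialomucin genes are shown because that of PODXL encodes the motif that the scaffolds bind. Binding of the scaffolds to the ends of PODXL2 and CD34 was not examined here. The capitals mark the last 12 coding bases (4 codons) before the stop codon, on the coding strand, in GENCODE 29 on GRCh38.
PODXL: gacctggatgaggaggaaGACACACACCTC
PODXL2: tcggacgtgttcgaggagGACACGCACCTG
CD34: agacaacacgtggtggctGATACCGAATTG
The PODXL stretch lies at chr7:131504314-131504343 (minus strand) in exon 9 of 9, that of PODXL2 at chr3:127672448-127672477 (plus strand) in exon 8 of 8, and that of CD34 at chr1:207887741-207887770 (minus strand) in exon 8 of 8. PODXL and PODXL2 were identical at 10 of the 12 capital bases, PODXL and CD34 at 6 and PODXL2 and CD34 at 7. The CD34 end is present in 2 of its 3 annotated coding transcripts.

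For the ERM linkers, 30 coding bases around the regulatory threonine are shown, with the threonine codon in capitals, because they show how alike the 3 genes are at the site that opens the protein.
EZR: gacaagtacaagACGctgcggcagatccgg
RDX: gataagtacaagACTctgcgacagattcga
MSN: gacaaatacaagACCctgcgccagatccgg
These lie at chr6:158766959-158766988 (EZR, minus strand, exon 13 of 13, codon 567), chr11:110231914-110231943 (RDX, minus strand, exon 14 of 16, codon 564) and chrX:65739819-65739848 (MSN, plus strand, exon 13 of 13, codon 558). EZR and MSN were identical at 27 of the 30 bases, EZR and RDX at 25 and RDX and MSN at 24. Over the aligned coding sequence, EZR and MSN shared 74.9% of bases, RDX and MSN 71.9% and EZR and RDX 70.7%, whereas NF2 shared 62.2% to 65.7% with the 3 ERM genes. Stretches of 75 bases that also occur in other annotated transcripts were few: 0% in PODXL, PODXL2 and EZR, 0.933% of those of MSN (shared with the pseudogene MSNP1), 0.793% of those of RDX, 0.191% of those of NF2 and 0.129% of those of CD34. The exons of EZR overlapped those of the antisense gene EZR-AS1 over 24 bases.

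The libraries held 56388161 to 75887696 counts. PRMT6, the arginine methyltransferase targeted by the shRNA, had 9.33, 7.97 and 7.19 CPM (counts scaled to the library size) in NC and 3.57, 4.58 and 5.24 in shPRMT6, without overlap. It fell by 0.87 on the log2 scale (SE 0.187; edgeR quasi-likelihood test with Benjamini-Hochberg adjustment over all genes tested, adjusted p = 0.0225). Leaving out NC 1, shPRMT6 1 or shPRMT6 2 ended this call, with an adjusted p of 0.0613, 0.0588 or 0.0713 for PRMT6. CDKN2A, which is deleted in U87 cells, had 0 counts in 5 libraries and 2 counts in shPRMT6 2. Among glioblastoma line markers, VIM (mesenchymal intermediate filament) had a mean FPKM of 1257 and CD44 of 46.1, while GFAP had 0.0300 and the glial marker S100B had 0 counts in all 6 libraries. VIM had a log2 fold change of -0.11 (adjusted p = 0.356 in edgeR). The summed CPM of the 6 markers on the list was 7800 to 9119 in NC and 7750 to 8447 in shPRMT6.

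PODXL RNA was about 4 times as abundant in shPRMT6 as in NC. It had 1782, 2592 and 1918 counts in NC and 8797, 8798 and 9400 in shPRMT6, and its deposited FPKM (fragments per transcript length and sequencing depth) was 3.84, 4.16 and 3.78 in NC and 16.95, 17.52 and 17.07 in shPRMT6. The highest NC library was far below the lowest shPRMT6 library, and the 3 libraries of each group lay close together, with a coefficient of variation of the CPM of 5.30% in NC and 1.86% in shPRMT6. The p that chose PODXL depends on this spread too, so the closeness is part of the choice. The mean rose from 32.2 ± 1.71 CPM to 140.0 ± 2.60 CPM (SD, n = 3), a ratio of 4.34 and a log2 fold change of 2.12 (SE 0.0654). By mean FPKM, PODXL moved from place 6920 to place 2170 among the 60612 genes.

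The unadjusted p that chose PODXL was 1.53e-08 in edgeR, just inside the rule. Just outside it were H2BC5, encoding a histone, and GAP43, a growth cone protein, with log2 fold changes of 2.83 and 2.59. Their unadjusted p-values in edgeR were 2.05e-08 and 5.90e-08. Both changed more than PODXL, and their standard errors (0.0913 and 0.0982) were larger. PODXL kept rank 1 among rising genes in 11 of 15 alternative analyses and was at rank 2 in the other 4, including the one without NC replicate 3.

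The relatives of PODXL were barely present. PODXL2 (endoglycan, a selectin ligand of neural and other tissues) had 34, 9 and 42 counts in NC and 12, 23 and 19 in shPRMT6, and its FPKM stayed between 0.0450 and 0.258 in the 6 libraries. The groups overlapped, with a log2 fold change of -0.72 (SE 0.694, 95% interval -2.38 to 0.94, adjusted p = 0.528 in edgeR). The interval includes 0, and the NC libraries of PODXL2 differed widely among themselves (coefficient of variation of the CPM 65.0%). CD34, the marker of blood stem cells and of vessel lining, had 0, 8 and 15 counts in NC and 0, 12 and 0 in shPRMT6. It did not pass the filter on low counts and was not tested. A library with 0 counts allows up to 0.0532 CPM in NC 1, 0.0470 in shPRMT6 1 and 0.0444 in shPRMT6 3, from 3 counts per library, which covers counting error only.

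**Figure D1:**
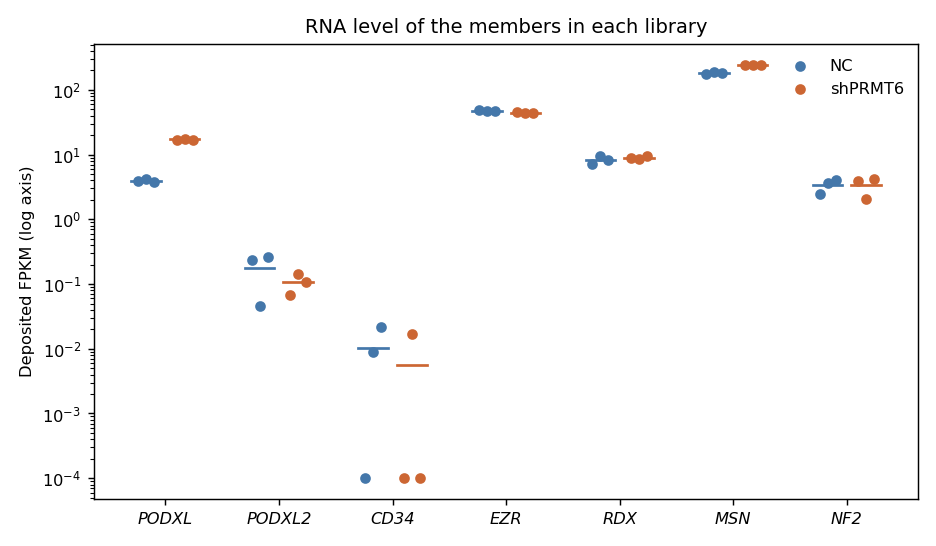
Deposited FPKM (vertical log axis) of the 7 genes in each of the 3 NC (blue) and 3 shPRMT6 (orange) libraries, with 1 point per library and a line at the group mean. PODXL separates widely and MSN narrowly, with shPRMT6 above NC, while EZR separates narrowly the other way, and points at 0.0001 mark libraries without counts for CD34.

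Moesin was the most abundant linker and the only one of the 5 other members tested that passed the threshold. MSN had an FPKM of 175, 189 and 183 in NC and of 240.0, 239.9 and 245 in shPRMT6. All 3 shPRMT6 libraries lay above all 3 NC libraries, and the difference between the group means was larger than the spread within either group. On the log2 scale MSN rose by 0.40 (SE 0.0448, 95% interval 0.29 to 0.50, adjusted p = 0.00257 in edgeR). MSN was therefore 1 of 5 members called, against 18.6% of all 18106 genes tested (9.51% called higher and 9.06% called lower). The call of MSN held in each of the 15 alternatives, with a log2 fold change of 0.37 to 0.42 and a highest adjusted p of 0.0243. In these bulk samples a change in the share of cells that express a gene and a change in RNA per cell cannot be told apart.

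Ezrin ran the other way by a small amount. EZR had an FPKM of 48.1, 47.7 and 47.7 in NC and of 45.0, 43.5 and 43.9 in shPRMT6. All shPRMT6 libraries lay below all NC libraries, but the log2 fold change was only -0.12 (SE 0.0493, 95% interval -0.24 to -0.005) and missed the threshold after adjustment over all genes (adjusted p = 0.139 in edgeR). DESeq2 placed the same difference past it, with an adjusted p of 0.0203.

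Radixin and merlin did not pass the threshold. RDX had an FPKM of 7.17, 9.39 and 8.14 in NC and of 8.87, 8.61 and 9.48 in shPRMT6. The groups overlapped, with a log2 fold change of 0.12 (SE 0.104, 95% interval -0.13 to 0.37, adjusted p = 0.488 in edgeR). NF2 had an FPKM of 2.42, 3.65 and 3.98 in NC and of 3.93, 2.06 and 4.18 in shPRMT6. The lowest library of each group, NC 1 and shPRMT6 2, set most of its spread, with a log2 fold change of 0.012 (SE 0.299, 95% interval -0.70 to 0.73, adjusted p = 0.983 in edgeR). Its sign turned in 7 of the 15 alternatives, among them those that left out NC 1 (-0.17), shPRMT6 1 (-0.11) or shPRMT6 3 (-0.16). NF2 was the noisiest of the well expressed members: its biological coefficient of variation was 0.273 where the trend at its level gave 0.193, and 9.46% of the genes tested exceeded their trend by a larger ratio. That of EZR was 0.0920, of MSN 0.0878, of PODXL 0.101 and of RDX 0.123, all below their trend, where PODXL was chosen by a p that depends on its spread.

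**Figure D2:**
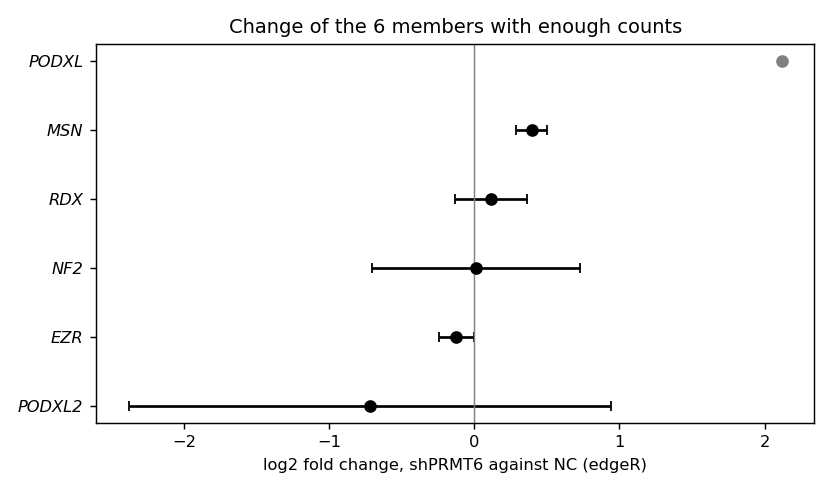
Log2 fold change of shPRMT6 against NC from edgeR (horizontal axis) for the 6 genes with enough counts, with bars at the 95% interval. The interval of MSN lies above 0 and that of EZR ends just below 0 before adjustment, those of RDX, NF2 and PODXL2 include 0, and PODXL (grey, no bar) was chosen for its difference.

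Per length of transcript, the order in NC was MSN, EZR, RDX, PODXL, NF2, PODXL2 and CD34. PODXL (3.78 to 4.16 FPKM) and NF2 (2.42 to 3.98 FPKM) overlapped in NC, while the other neighbours in the order did not. In shPRMT6, PODXL stood above RDX, at 16.95 to 17.52 FPKM against 8.61 to 9.48 FPKM, and no neighbours overlapped. EZR FPKM was 12.2 ± 0.635 times that of PODXL in NC and 2.57 ± 0.0856 times in shPRMT6 (SD, n = 3), a shift that includes the rise that chose PODXL.

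The make-up of the ERM pool shifted toward moesin. The FPKM of MSN, EZR and RDX summed to 231, 246 and 239 in NC and to 294, 292 and 298 in shPRMT6, without overlap (exact permutation test, p = 0.1, two-sided, the smallest p that 3 against 3 libraries allow). MSN held 76.03%, 76.8% and 76.7% of this sum in NC and 81.7%, 82.1% and 82.1% in shPRMT6, a difference of 5.47 percentage points. EZR held 20.9%, 19.4% and 19.9% in NC and 15.3%, 14.9% and 14.7% in shPRMT6, which is 20.1% ± 0.745 against 14.99% ± 0.298 (SD, n = 3). RDX held 3.44% ± 0.357 in NC and 3.05% ± 0.120 in shPRMT6, with overlapping libraries. The exact permutation p of the shares was 0.1 for MSN, 0.1 for EZR and 0.2 for RDX, or 0.15, 0.15 and 0.2 after adjustment over the 3 shares, and with 3 against 3 libraries this exact test cannot go below 0.1. The ratio of MSN to EZR FPKM was 3.64, 3.96 and 3.85 in NC and 5.33, 5.51 and 5.57 in shPRMT6. Since the 3 shares sum to the whole, they are not independent of each other.

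**Figure D3:**
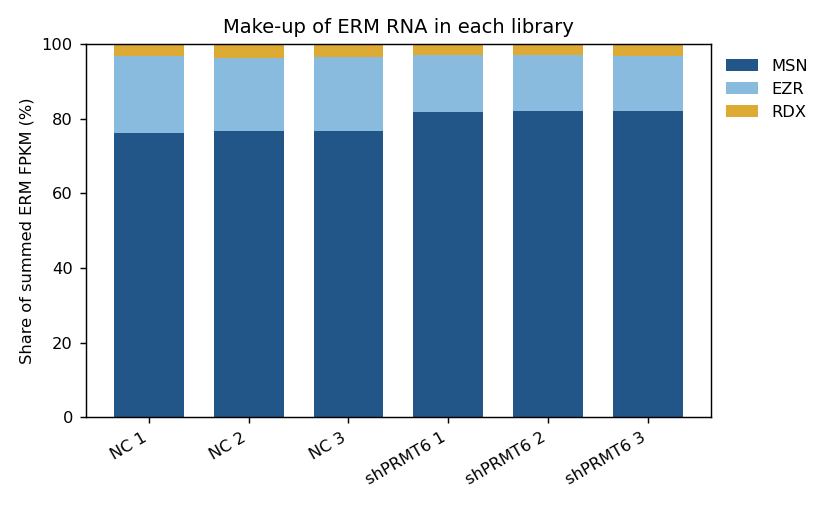
Share of the summed FPKM of MSN, EZR and RDX held by each gene (stacked bars, percent, from 0 to 100) in each of the 6 libraries. The MSN part is 76.03% to 76.8% in NC and 81.7% to 82.1% in shPRMT6, and the EZR part is correspondingly narrower.

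Of the scaffolds that join podocalyxin to the linkers, NHERF2, the partner of podocalyxin in podocytes, had 14.1, 14.4 and 15.7 CPM in NC and 21.4, 18.6 and 21.5 CPM in shPRMT6. The groups did not overlap, and NHERF2 rose by 0.48 on the log2 scale (SE 0.101, adjusted p = 0.0217 in edgeR). Leaving out NC 1, shPRMT6 1 or shPRMT6 3 ended this call, with an adjusted p of 0.0626, 0.0771 or 0.0798 for NHERF2. NHERF1, the scaffold of many epithelial cells, had a log2 fold change of 0.10 (SE 0.216, adjusted p = 0.800), PDZK1 had 0.99 (SE 0.695, adjusted p = 0.380) on under 1 CPM, and NHERF4 had 0 counts. Thus 1 of the 3 tested genes of 4 listed was called higher, beside 9.51% of all genes.

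The enzymes that switch ERM proteins on and off were listed as 24 genes (small GTPases and their kinases, the SLK family, phosphatases and lipid kinases), of which 20 were tested, 2 were called higher and 2 lower (beside 9.51% and 9.06% of all genes), with a median log2 fold change of -0.018 beside -0.013 over all genes. STK10, a lymphocyte-oriented kinase that phosphorylates the ERM threonine, went from 97.0 ± 2.77 to 119.9 ± 3.53 CPM (SD, n = 3; log2 fold change 0.31, adjusted p = 0.0136). PIP5K1C, which makes the membrane lipid PIP2 that recruits ERM proteins, went from 70.8 ± 4.06 to 89.4 ± 1.61 CPM (0.34, adjusted p = 0.0156). GRK2, which phosphorylates ezrin and radixin, fell by 0.37 on the log2 scale (adjusted p = 0.0282), and PPP1CA, a catalytic subunit of protein phosphatase 1, fell by 0.64 (adjusted p = 0.0353). PPP1CA had 203, 129 and 178 CPM in NC and 110.3, 108 and 109.6 CPM in shPRMT6, and 14.1% of its stretches of 75 bases also occur in overlapping genes. RHOA, the most abundant gene of the list (mean FPKM 255), had a log2 fold change of 0.033 (adjusted p = 0.719). The count of 4 became 2 without NC replicate 1 or 3, 1 without shPRMT6 replicate 1 or 3 and 0 without shPRMT6 replicate 2. Over all fits with 1 library left out it ran from 0 to 6, while the calls over all genes went from 3362 to between 1755 and 3183.

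Other membrane proteins that ERM linkers bind moved in both directions. Of 15 listed, 12 were tested, 3 were called higher and 1 lower (33.3% called, beside 18.6% of all genes), with a median of 0.12. MUC1, a cell surface mucin, had 6.15, 6.04 and 6.31 CPM in NC and 15.5, 11.2 and 9.46 CPM in shPRMT6 (log2 fold change 0.97, adjusted p = 0.0174). SELPLG, the P-selectin ligand, rose by 0.89 (adjusted p = 0.0332) and the proteoglycan SDC2 by 0.32 (adjusted p = 0.0438). ICAM1, an adhesion receptor for leukocytes, fell by 0.57 on the log2 scale (adjusted p = 0.00753), and this call held in each of the 15 alternatives. CD44, the hyaluronan receptor and the most abundant ligand, had 651, 455 and 598 CPM in NC and 613, 456 and 502 CPM in shPRMT6, overlapping, with a log2 fold change of -0.12 (SE 0.160, adjusted p = 0.672). The count of 4 became 1 without NC replicate 3 and 2 without any 1 of the shPRMT6 replicates. Of the 7 other sialomucins, 5 were tested, and MUC1 was the only 1 called (20% beside 18.6% of all genes). CD164 (endolyn) was the most abundant of them and had 263, 233 and 218 CPM in NC and 313, 339 and 203 CPM in shPRMT6 (0.26, adjusted p = 0.398). MUC1 had an adjusted p of 0.0531 without NC replicate 1 and 0.0598 without NC replicate 3, and CD164 had 0.0456 without shPRMT6 replicate 3.

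Among the other FERM domain proteins, 28 of 30 were tested, 9 were called higher and 1 lower (35.7% called, beside 18.6% of all genes), with a median of 0.094. FRMD5 went from 5.76 ± 0.850 to 14.2 ± 1.09 CPM (log2 fold change 1.30, adjusted p = 0.00249), EPB41L4B from 13.9 ± 0.807 to 21.9 ± 0.756 CPM (0.65, adjusted p = 0.00481) and PTK2B, a focal adhesion kinase relative, from 9.48 ± 1.25 to 15.8 ± 1.24 CPM (0.74, adjusted p = 0.0116). EPB41L2, a membrane skeleton protein of the band 4.1 family, fell by 0.38 on the log2 scale (adjusted p = 0.0211). TLN1 (talin), which links integrins to actin and is the most abundant of the list, had a log2 fold change of 0.0047 (SE 0.0537, adjusted p = 0.964). The count of 10 became 6 without NC replicate 1, 4 without NC replicate 3 or shPRMT6 replicate 1 and 3 without shPRMT6 replicate 2 or 3.

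The 12 partners of merlin (the Hippo kinases, SAV1, angiomotins, KIBRA proteins and PAK kinases) were all tested, with 1 called higher, 1 lower (beside 9.51% and 9.06% of all genes) and a median of -0.0026. SAV1, the scaffold of the Hippo kinases, had 25.2, 25.8 and 25.5 CPM in NC and 35.0, 32.8 and 31.7 CPM in shPRMT6 (log2 fold change 0.38, adjusted p = 0.0176). AMOTL2, an angiomotin that is also a transcriptional target of YAP, had 18.2, 17.1 and 21.1 CPM in NC and 11.95, 9.78 and 11.46 CPM in shPRMT6. It fell by 0.77 on the log2 scale (adjusted p = 0.00928) and was past the threshold in each of the 15 alternatives. PAK2, which phosphorylates merlin and is the most abundant gene of the list, had a log2 fold change of 0.23 (SE 0.0804, adjusted p = 0.0993). The call of SAV1 was lost without NC replicate 3 (adjusted p = 0.0611), shPRMT6 replicate 1 (0.0706) or shPRMT6 replicate 2 (0.0662), which left 1 called gene. Over all fits with 1 library left out the count of this list ran from 1 to 3.

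Genes for the apical delivery of podocalyxin, namely RAB GTPases, synaptotagmin-like proteins, the exocyst and polarity proteins, included 29 tested genes of 30, with 9 called higher, 2 lower (37.9% called, beside 18.6% of all genes) and a median of 0.13. RAB27B, a GTPase of vesicle docking, had 64.8, 82.6 and 74.5 CPM in NC and 137, 140.4 and 145 CPM in shPRMT6, with a log2 fold change of 0.93 (SE 0.0958, adjusted p = 0.00196). ANXA2, which binds PIP2 at the apical membrane, went from 1606 ± 92.4 to 2303 ± 38.3 CPM (0.52, adjusted p = 0.00207), although 4.098% of its stretches are shared with pseudogenes such as ANXA2P2. The exocyst subunit EXOC5 rose by 0.57 (adjusted p = 0.00619). The kinase PRKCI of the apical polarity complex fell by 1.06 on the log2 scale (adjusted p = 0.0151) and RAB8B, a vesicle GTPase, by 0.76 (adjusted p = 0.0150). RAB27B, ANXA2 and EXOC5 were called in each of the 15 alternatives. Leaving out shPRMT6 1 or 2 gave PRKCI an adjusted p of 0.0572 or 0.0601, and leaving out shPRMT6 1, 2 or 3 gave RAB8B 0.0582, 0.0578 or 0.0501. The count of 11 became 7 without NC replicate 1, 6 without NC replicate 3, 5 without shPRMT6 replicate 1 or 3 and 4 without shPRMT6 replicate 2.

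The called enzymes among those that build the glycans of podocalyxin were all higher in shPRMT6. Of 32 enzymes for mucin O-glycans and sialic acid, 27 were tested and 8 were called higher, or 29.6%, beside 9.51% of all genes called higher, with a median of 0.26. GALNT5, which adds the initial sugar of O-glycans, had 4.04, 4.02 and 4.60 CPM in NC and 14.7, 15.6 and 14.7 CPM in shPRMT6, with a log2 fold change of 1.83 (SE 0.111, adjusted p = 0.000483). The related GALNT12 went from 74.8 ± 0.946 to 109.6 ± 2.48 CPM (0.55, adjusted p = 0.00170) and GALNT11 from 54.5 ± 3.07 to 79.4 ± 3.75 CPM (0.54, adjusted p = 0.00454). CMAS, which activates sialic acid, had the highest mean FPKM of the list (55.1) and a log2 fold change of 0.30 (adjusted p = 0.0112), with an adjusted p of 0.0555 without shPRMT6 replicate 1. The count of 8 stayed between 7 and 11 over the 15 alternatives. For GALNT12, 18.9% of its stretches overlap an antisense gene, AL136084.2.

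Over these 9 lists, which hold 157 genes besides the 7 members, 139 were tested, 33 were called higher and 8 lower, or 29.5% beside 18.6% of all genes tested, with a median log2 fold change of 0.13 beside -0.013. The lists were drawn up with earlier results of these data known, so this share describes them and supports nothing.

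**Figure D4:**
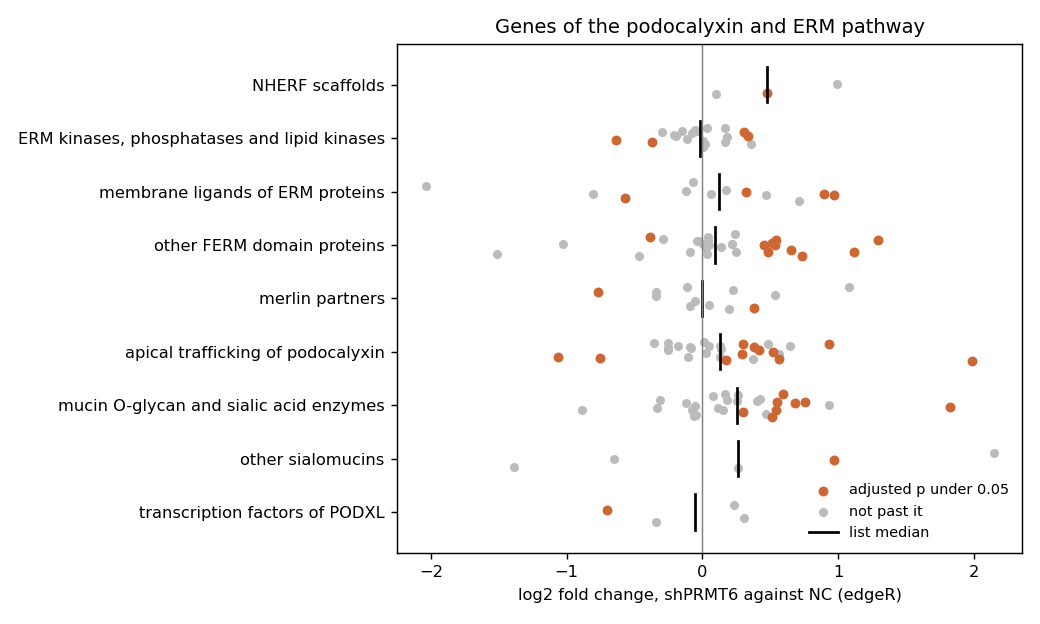
Log2 fold change of shPRMT6 against NC from edgeR (horizontal axis) for every tested gene of the 9 lists (rows), with 1 point per gene, orange where the adjusted p is under 0.05, and a black line at the median of each list. Orange points lie mostly to the right of 0 in the rows of FERM domain proteins (9 to 1), apical trafficking (9 to 2) and glycan enzymes (8 higher), and on both sides in the row of ERM kinases (2 to 2).

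Of 5 transcription factors known to act on the PODXL gene, 4 were tested. SP1, a general activator, had a log2 fold change of -0.34 (SE 0.122, adjusted p = 0.104), and DESeq2 placed it past the threshold (adjusted p = 0.0191). WT1, the podocyte activator of PODXL, had at most 0.224 CPM and was not tested.

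PODXL marks podocytes, vessel lining, blood cell precursors and pluripotent cells, and the markers of these cells were read beside it. Of 8 podocyte markers, the defining gene NPHS1 had 0 counts in all 6 libraries. Of the 8, 3 were tested and 1, SYNPO, was called higher (log2 fold change 0.29, adjusted p = 0.0126 in edgeR), beside 9.51% of all genes. The summed level of the 8 podocyte markers was 414 to 453 CPM in NC and 411 to 422 CPM in shPRMT6, mostly from KIRREL1. KIRREL1 had 332, 369 and 359.97 CPM in NC and 308, 318 and 318 CPM in shPRMT6, lower without overlap, with a log2 fold change of -0.17 (SE 0.0582, adjusted p = 0.0951 in edgeR). Its adjusted p was 0.0148 in DESeq2 and 0.0425 in edgeR with NC 1 left out. Leaving out shPRMT6 1, 2 or 3 gave SYNPO an adjusted p of 0.0536, 0.0636 or 0.0550.

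Of 8 endothelial markers, 6 were tested and 1, TEK, was called higher (log2 fold change 0.60, adjusted p = 0.0288 in edgeR), beside 9.51% of all genes. The summed level of the 8 endothelial markers was 18.2, 26.6 and 25.2 CPM in NC and 30.3, 29.3 and 30.1 CPM in shPRMT6. The groups did not overlap, but the NC libraries differed among themselves by more than the gap between the groups. CDH5 had at most 0.0526 CPM and CLDN5 at most 0.0715 CPM. The part of the endothelial markers in the PODXL difference was not tested. The call of TEK was lost without NC replicate 2 (adjusted p = 0.0616), NC replicate 3 (0.0780) or any 1 shPRMT6 replicate (0.0589 to 0.0968).

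None of the 6 blood cell markers was tested, 4 of them, GATA1 and HBB included, had 0 counts in all libraries, and their summed level was 0 to 0.128 CPM in NC and 0.0591 to 0.173 CPM in shPRMT6. Of 6 pluripotency markers, NANOG and LIN28A had 0 counts in all libraries. Of the 6, 3 were tested and 1, ZFP42, was called higher on at most 1.41 CPM, beside 9.51% of all genes. ZFP42 had a log2 fold change of 1.94 (SE 0.528, adjusted p = 0.0485 in edgeR). The summed level of the pluripotency markers was 0.358 to 1.27 CPM in NC and 1.20 to 1.85 CPM in shPRMT6. The adjusted p of ZFP42 was 0.0969 to 0.149 without NC replicate 1, NC replicate 2 or any 1 shPRMT6 replicate.

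The genes whose pattern over the 6 libraries was most like that of PODXL were found among 10050 genes by the root mean square difference of centred log2 CPM, where the median gene differed by 1.08. The nearest were H2BC12 (a histone H2B gene, 0.0702), LAMA4 (a laminin chain of basement membranes, 0.0908), GABRG3-AS1 (an antisense RNA, 0.172), SPP1 (osteopontin, a ligand of integrins and of CD44, 0.179) and GALNT5 (0.180). This measure includes the group difference that chose PODXL. H2BC12 had 12.7, 15.1 and 12.1 CPM in NC and 52.8, 59.7 and 58.9 CPM in shPRMT6. As for PODXL, NC 2 was the highest NC library of H2BC12 and shPRMT6 1 the lowest of its group. For PODXL that lowest place was narrow, with 138.2 CPM in shPRMT6 1 and 138.8 CPM in shPRMT6 3. LAMA4 had 4.60, 5.09 and 3.78 CPM in NC and 19.9, 19.1 and 19.3 CPM in shPRMT6. SPP1 had 68.5, 60.7 and 74.1 CPM in NC and 235, 276 and 243 CPM in shPRMT6. The points share their libraries, and 50.5% of the stretches of H2BC12 occur in other histone genes. When log2(FPKM + 1) was used, 3 of the 5 genes remained among the nearest 5, while LAMA4 stood at place 88 and GALNT5 at place 180.

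PODXL lies at chr7:131500262-131558217 on the minus strand of GRCh38. Its nearest tested protein-coding neighbour, MKLN1 (muskelin, a subunit of a ubiquitin ligase), ends 3.63 kb from the end of PODXL on the opposite strand. The neighbours were examined after the members' values were known. MKLN1 had 39.2, 44.7 and 44.0 CPM in NC and 98.6, 100.01 and 50.1 CPM in shPRMT6, and shPRMT6 3 stood close to NC. MKLN1 rose by 0.96 on the log2 scale (SE 0.258, adjusted p = 0.0463 in edgeR), and the call was lost without any 1 library other than shPRMT6 replicate 3 (adjusted p = 0.0960 to 0.136). The call was also lost with the replicate block (adjusted p = 0.0949 in edgeR) and in limma (0.0592 to 0.147), and it held in 5 of the 15 alternatives. A total of 19.7% of the stretches of MKLN1 are shared with overlapping genes such as LINC-PINT, whereas PODXL overlaps no other gene.

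Within 2 Mb of PODXL, 26 genes were tested, of which 7 were called higher and 2 lower, beside 9.51% and 9.06% of all genes, with a median log2 fold change of -0.042. PLXNA4, a semaphorin receptor, had a log2 fold change of 0.89 (adjusted p = 0.0211) and MEST of 0.83 (adjusted p = 0.0354), while COPG2, CHCHD3 and EXOC4 had -0.098, 0.061 and 0.37 and were not called. Leaving out NC 3, shPRMT6 1 or shPRMT6 2 gave PLXNA4 an adjusted p of 0.0625, 0.0635 or 0.0771. MEST lost its call without any 1 library other than NC replicate 2 (adjusted p = 0.0565 to 0.108). Within 2 Mb of MSN, 8 genes were tested, 1 was called higher and 1, LAS1L, was called lower (-0.38, adjusted p = 0.0145), and LAS1L had 0.0591 without shPRMT6 replicate 1 and 0.0669 without shPRMT6 replicate 2.

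**Figure D5:**
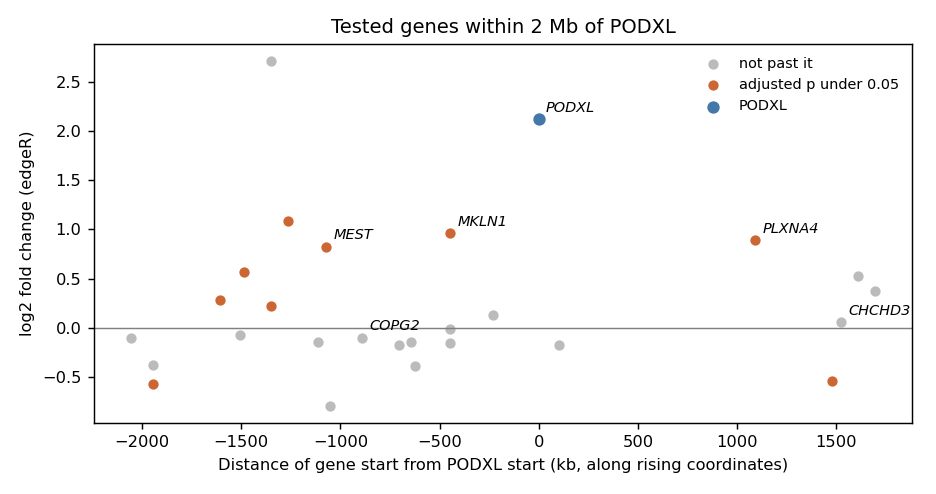
Log2 fold change of shPRMT6 against NC from edgeR (vertical axis) against the distance of each gene's start from the PODXL start (horizontal axis, kb) for the 26 tested genes within 2 Mb and PODXL itself (blue). Orange points passed an adjusted p of 0.05, with 7 above 0 and 2 below, and the grey point above PODXL is SSMEM1 at 2.71 (adjusted p = 0.209).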

How the data were processed

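RNA was measured in 3 NC and 3 shPRMT6 libraries of U87 cells, made with a NEBNext Ultra RNA kit. The authors deposited raw read counts per gene, not normalized, and FPKM values scaled to transcript length and mapped fragments, where 0.0001 stands for no counts. The submitters' processing notes name HISAT2 and HTSeq 0.13.5 on GRCh38. The annotation, the strand setting and the tool behind FPKM are not given in the sources used here, so reads of genes that overlap on opposite strands may not be told apart. The labels give Trizol for the extraction and the methods an RNeasy kit. A symbol was found for 60401 of the 60612 identifiers, and GENCODE 29 holds 58394.

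Counts were tested with edgeR 4.0.16 in R 4.3.3 (quasi-likelihood test, TMM factors of 0.992 to 1.01, its filter on low counts, condition as the only term, Benjamini-Hochberg adjustment over 18106 genes, threshold 0.05), and the median log2 fold change of all genes was -0.013. CPM were scaled with the same factors, and errors are SD over 3 libraries. The FPKM shares were tested with an exact permutation test (SciPy 1.17.1). Alternatives were DESeq2 1.42.0, other scaling and filters, a replicate block, limma 3.58.1 on log2(FPKM + 1) or log2(FPKM + 0.1), and each library left out. Levels of different genes were compared by FPKM only. The 75-base stretches of annotated transcripts were searched in all other GENCODE 29 transcripts on both strands.

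The members and lists were chosen with earlier results of these data known. Named genes were the 7 members, PRMT6, CDKN2A, the 2 rising genes next to PODXL by p, the 5 most like it (average log2 CPM of at least 3), and of each list up to 3 called genes in each direction with the smallest p and the gene of the highest mean FPKM. For marker lists and neighbours, further genes were named after their values were seen. Within a group, pairs of libraries differed beyond counting noise (chi-square per degree of freedom 53.9 to 88.2). Some results of the lists are not reported here.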

Additional observations from a re-analysis of the deposited data

How the results depend on the processing

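Over all genes, 3362 were called, against 5782 with DESeq2, 1858 with the replicate block and 1755 to 3183 when 1 library was left out, where fewer libraries entered the fit. The lists held 41 calls, against 18 with the block and 20 to 39 when 1 library was left out. Besides PODXL, 1 member was called in every alternative except DESeq2, which called 2 because EZR passed (-0.12, adjusted p = 0.0203). The log2 fold change of PODXL was 2.08 to 2.16 when 1 library was left out and 1.88 in limma on log2(FPKM + 1), where the pseudocount shrinks low values. NF2 turned sign with the replicate block (-0.022), in limma on log2(FPKM + 1) (-0.0059) and log2(FPKM + 0.1) (-0.016), and without 1 library (-0.17 to 0.27), and was past the threshold in none (adjusted p 0.481 to 0.992). TLN1 turned sign with upper quartile factors (-0.0022) and without NC replicate 1 or shPRMT6 replicate 3, and ran from -0.033 to 0.031 when 1 library was left out.

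Deviations from the group mean had correlations of -0.030 to -0.017 between same-numbered libraries of the groups and of -0.019 to 0.045 between the other pairs. No shared deviation was seen, but these values cannot decide whether same-numbered libraries were prepared together. With the replicate block, MSN kept its call (adjusted p = 0.0243) and that of NHERF2 was lost (adjusted p = 0.0581), and the calls in the lists fell to 0 for ERM kinases, 2 for ERM ligands, 2 for FERM proteins, 1 for merlin partners and 4 for trafficking, while the 8 glycan enzymes stayed 8. The cause of these differences was not tested. The difference in ERM share kept its direction for MSN (5.23 to 5.62 percentage points), EZR (-5.41 to -4.67) and RDX (-0.56 to -0.21) in 7 alternatives. PODXL2 and CD34 had at most 42 counts per library.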
